A study of Homo sapiens with 18 samples.

Results

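A pair of cultured tumour cell lines was compared in their control state: HeyA8, an ovarian cancer line, and PC3, a prostate cancer line. Of the 18 RNA-seq libraries of the study, the 6 that received the control short RNA sNT8 were used, 3 from HeyA8 (A, B and C) and 3 from PC3 (A, B and C). All 6 cultures had been transfected with sNT8 at 10 nM with RNAiMax, a lipid transfection reagent, and total RNA was taken after 48 h, so the state compared is that of transfected cells in both lines. The labels give the genotype of both lines as wt and do not say which gene that refers to. The other 12 libraries received sG5C or sCAG, the other short RNAs of the study, and were used only to ask whether a difference between the lines was also present there. The labels do not say that libraries A, B and C came from separate cultures, so p-values measure the spread between these libraries, which may be technical. In the labels the PC3 libraries carry 2 library-name prefixes, DISE72 and DISE71, and the HeyA8 libraries only DISE71; line and a possible batch cannot be told apart. Because each library is bulk RNA, fewer cells that make a transcript and less of it per cell cannot be told apart either.

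A carcinoma line keeps much of the gene expression programme of the tissue it came from: transcription factors that set position along the body axis and organ identity, junction and keratin genes, and genes of the surrounding matrix. It also carries the losses that arose in the tumour. Tumour lines often differ in the genes that halt the cell cycle, repair DNA or start cell death after damage, among them CDKN1A, and in which tumour suppressors they still express. The deposited values are levels per gene and hold no sequence, so mutations were not measured here.

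The 6 libraries held 31232377 to 39189838 reads assigned to genes. HeyA8 libraries had reads in 32223 to 32690 genes and PC3 libraries in 34728 to 35199. Levels are given as CPM, the reads of a gene relative to the library's total after scaling by the trimmed mean of M-values method, and as mean ± SD over 3 libraries where a mean is given. They are not divided by transcript length, so they compare the lines for a gene and not genes with each other. Where a pair of means stands in brackets, HeyA8 comes first. Log2 fold changes are PC3 minus HeyA8, each with an approximate standard error. A gene was called different at an edgeR quasi-likelihood adjusted p under 0.05, and the at least 4-fold set had in addition a log2 fold change of 2 or more in size.

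The lines differed in most of what could be tested. Of 24095 genes tested, 18127 were called (75.2%), 9460 higher in PC3 (39.3%) and 8667 higher in HeyA8 (36%). At least 4-fold differences were found for 4720 genes (19.6%), 2875 higher in PC3 (11.9%) and 1845 higher in HeyA8 (7.66%). The median log2 fold change of all tested genes was 0.05. Scaling by library totals alone moved that median by 0.29, to 0.34, and with it the share of calls that were higher in PC3 from 52.2% to 64.2%. The shares of all tested genes higher in PC3 and in HeyA8 are the background for each group of genes. They were 39.3% and 36% for calls and 11.9% and 7.66% for at least 4-fold differences. Similar counts in both directions are thus what all genes show.

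**Figure D1:**
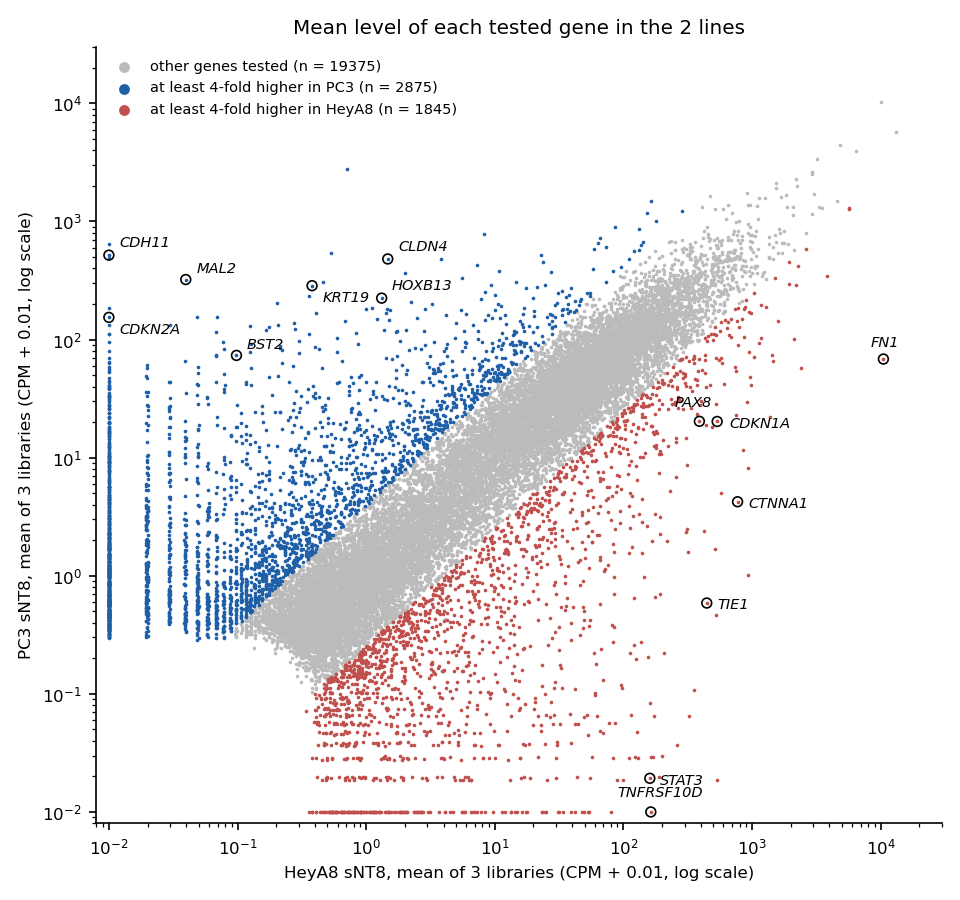
Mean level of each tested gene in the 3 HeyA8 sNT8 libraries (x axis) and the 3 PC3 sNT8 libraries (y axis), both in CPM plus 0.01 on log scales; coloured points are the 2875 genes at least 4-fold higher in PC3 and the 1845 at least 4-fold higher in HeyA8. The points along the left and lower edges are genes with no or almost no reads in HeyA8 or in PC3.

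The largest differences were first taken among protein-coding genes read in both lines, with a mean of at least 1 CPM in each. The 8 highest in PC3 were CLDN4, ITGB4, HOXB13, DPP4, FST, MYO1D, NR2F1 and CD24. CLDN4, a tight-junction claudin, had 1.24, 1.62 and 1.52 CPM in the HeyA8 libraries and 537, 468 and 438 CPM in the PC3 libraries. ITGB4, the integrin beta subunit of hemidesmosomes, had 2.43, 1.65 and 1.87 CPM in the HeyA8 libraries and 353, 373 and 363 CPM in the PC3 libraries. The PC3 libraries were all far above the HeyA8 libraries for both genes, with a log2 fold change of 8.36 ± 0.098 (edgeR adjusted p = 2.9e-28) for CLDN4 and a log2 fold change of 7.51 ± 0.08 (edgeR adjusted p = 1.6e-38) for ITGB4. DPP4, a cell-surface peptidase, had means of 1.09 ± 0.271 CPM in HeyA8 and 186 ± 13.5 CPM in PC3, and FST, the secreted activin antagonist follistatin, 3.84 ± 0.653 CPM in HeyA8 and 480.2 ± 27.7 CPM in PC3. The other 4 had log2 fold changes of 7.41 (HOXB13), 6.96 (MYO1D, an unconventional myosin), 6.96 (NR2F1, an orphan nuclear receptor) and 6.86 (CD24, a surface glycoprotein).

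The 8 lowest, and so highest in HeyA8, were SHANK1, ADAMTS6, CTNNA1, PTPRG, FN1, IL1A, DDR2 and SPARC. FN1, the matrix glycoprotein fibronectin, had 11324, 9924 and 10270.0 CPM in the HeyA8 libraries and 64.6, 71.1 and 69.4 CPM in the PC3 libraries, a log2 fold change of -7.26 ± 0.063 (edgeR adjusted p = 2.9e-39). SPARC, a collagen-binding matrix protein, had 634, 558 and 533 CPM in the HeyA8 libraries and 4.82, 5.49 and 4.67 CPM in the PC3 libraries, and DDR2, a collagen-binding receptor kinase, 312, 312 and 311 CPM in the HeyA8 libraries and 2.96, 2.25 and 2.28 CPM in the PC3 libraries. SHANK1, a scaffold protein best known from synapses, had means of 519 ± 19.6 CPM in HeyA8 and 1.67 ± 0.336 CPM in PC3. ADAMTS6, a secreted metalloprotease, had 316 ± 19.8 CPM in HeyA8 and 1.57 ± 0.181 CPM in PC3, and PTPRG, a receptor tyrosine phosphatase, 422 ± 16.5 CPM in HeyA8 and 2.40 ± 0.26 CPM in PC3. IL1A, the cytokine interleukin-1 alpha, had 313, 330.3 and 275 CPM in the HeyA8 libraries and 1.63, 2.83 and 2.47 CPM in the PC3 libraries, a log2 fold change of -7.06 ± 0.13 (edgeR adjusted p = 2.3e-13).

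Other genes were read in a single line. Among called protein-coding genes, 537 had no more than 3 reads in any HeyA8 library and 224 no more than 3 reads in any PC3 library. Where a line had no read in any of its 3 libraries, the fold is given as a lower bound that sets the silent line at 3 reads over the group. The most abundant of the first kind was PKP1, a desmosomal plakophilin, with 652, 652 and 635 CPM in PC3 and no read in HeyA8, at least 22131-fold higher. CDH11, a cadherin known from mesenchymal cells, followed with 507, 519.6 and 528 CPM in PC3 and no read in HeyA8, at least 17740.0-fold higher. NEFL, a neurofilament subunit, had 502, 498 and 461 CPM and no read in HeyA8. MAL2, a membrane traffic protein of polarized epithelia, had 310.4, 332 and 324 CPM in PC3 against 3 reads in all of HeyA8. KRT75, CDKN2A, ONECUT3 and CMBL completed the 8, with PC3 means of 132 to 186 CPM.

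In the opposite direction the 8 most abundant were CAVIN1, FAM167A, PDPN, HIST1H3G, TSPAN14, QPRT, MARCHF4 and TGFBI. CAVIN1, a coat protein of caveolae, had 558, 529 and 529 CPM in HeyA8 and 1 read in all of PC3. PDPN, the mucin-type surface protein podoplanin, had 283, 251 and 246 CPM against 3 reads in all of PC3. TGFBI, a secreted matrix adaptor, had 182, 164 and 147 CPM against 2 reads in all of PC3. QPRT, an enzyme of NAD synthesis, had a mean of 172 against 0.0553 CPM. Reads of the histone gene HIST1H3G could be shared with near-identical histone genes, so its level is uncertain.

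A list called damage-response here, with members of cell-cycle arrest, DNA repair and cell death among others, was lower in PC3 as a group. The name only labels the list. The labels name no damaging agent, and a response to damage was not measured. In this damage-response list 49 of 50 genes were tested, 6 were higher in PC3 and 37 in HeyA8, and 2 and 22 of these by at least 4-fold. With library totals alone 12 were higher in PC3 and 36 in HeyA8. The median of the list was -1.86 on the log2 scale, against 0.05 for all genes. The separate list of apoptosis regulators had a median of 0.03. The summed level of the list was 7587 to 7998 CPM in HeyA8 and 1779 to 1831 CPM in PC3.

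CDKN1A, the cyclin-dependent kinase inhibitor p21, had 600.1, 474 and 534 CPM in the HeyA8 libraries and 18.7, 23.1 and 18.8 CPM in the PC3 libraries, a log2 fold change of -4.73 ± 0.12 (edgeR adjusted p = 7.0e-09). MDM2, a ubiquitin ligase, had 459, 464 and 438 CPM in the HeyA8 libraries and 106, 106 and 108 CPM in the PC3 libraries, a log2 fold change of -2.09 ± 0.047 (edgeR adjusted p = 2.8e-29). For both genes all HeyA8 libraries were above all PC3 libraries, but PC3 kept more than 100 CPM of MDM2. ZMAT3, an RNA-binding protein, had 406, 378 and 388 CPM in the HeyA8 libraries and 27.1, 29.3 and 27.5 CPM in the PC3 libraries. BBC3, which encodes the death protein PUMA, had 24.8, 22.9 and 28.9 CPM in the HeyA8 libraries and 1.27, 1.43 and 1.03 CPM in the PC3 libraries, and BAX, its relative in the mitochondrial pathway, 182, 176 and 180.0 CPM in the HeyA8 libraries and 33.7, 34.4 and 33.4 CPM in the PC3 libraries. FAS, the death receptor, had 42.2, 38.1 and 38.5 CPM in the HeyA8 libraries and 8.43, 9.15 and 10.4 CPM in the PC3 libraries. Each of these 4 was higher in HeyA8, with log2 fold changes of -3.80, -4.36, -2.41 and -2.09. RRM2B, a ribonucleotide reductase subunit used in DNA repair, had means of 309 ± 11.2 CPM in HeyA8 and 40.7 ± 1.47 CPM in PC3.

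Several genes of the list had no or almost no reads in PC3. TNFRSF10D, a decoy receptor for the death ligand TRAIL, had 169, 159.7 and 161 CPM in HeyA8 and no read in PC3, at least 5925-fold lower in PC3. EDA2R, a receptor of the TNF receptor family, had 51.1, 50.3 and 45.6 CPM in HeyA8 and no read in PC3, at least 1775-fold lower. SPATA18, a mitochondrial quality control gene, had 15.1, 14.5 and 16.4 CPM in HeyA8 and 7 reads in all of PC3.

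Against this direction, 6 listed genes were higher in PC3. KITLG, the ligand of the receptor KIT, had 11.4, 10.9 and 10.6 CPM in the HeyA8 libraries and 149, 152 and 155 CPM in the PC3 libraries, a log2 fold change of 3.79 ± 0.061 (edgeR adjusted p = 1.2e-33). CMBL, a hydrolase, had 132, 132 and 133 CPM in PC3 and no read in HeyA8. GDF15, a stress-induced secreted factor (1.22 on the log2 scale), and LIF, a cytokine (1.36), were also higher in PC3. PPM1D, TRIAP1, SUSD6, PERP, APAF1 and ACER2 were tested and not called.

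**Figure D2:**
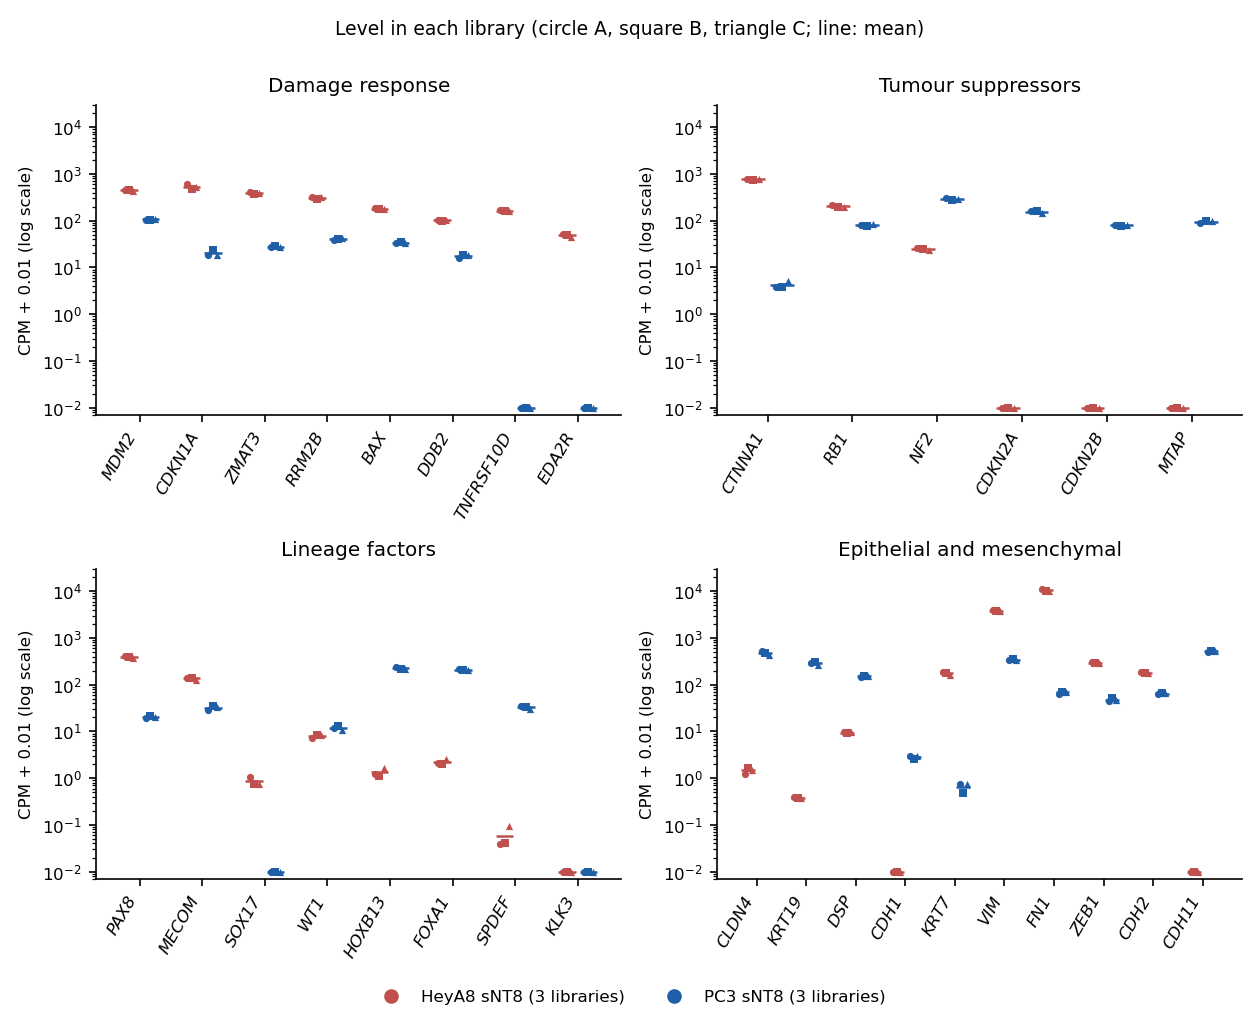
Level of chosen genes in each of the 3 HeyA8 and 3 PC3 sNT8 libraries, in CPM plus 0.01 on a log scale; each symbol is a library and each line a mean. The libraries of a line lie close together, and for most genes shown the lines are separated by more than the whole spread within either line.

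Different tumour suppressors were low or unread in HeyA8 and in PC3. In this list 25 of 25 genes were tested, 7 were higher in PC3 and 16 in HeyA8, and 5 and 3 of these by at least 4-fold. CTNNA1, which encodes alpha-catenin and ties cadherins to actin, at chr5:138610967-138935034 (hg38, coordinates as in the deposited tables), had 797, 755 and 766 CPM in the HeyA8 libraries and 3.84, 3.74 and 5.09 CPM in the PC3 libraries, a log2 fold change of -7.51 ± 0.075 (edgeR adjusted p = 1.8e-37). All 3 PC3 libraries were far below all 3 HeyA8 libraries. LATS2, a Hippo pathway kinase, was also higher in HeyA8 (140.4 against 23.2 CPM), as was the retinoblastoma gene RB1 (202 against 81.1 CPM).

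The reverse was seen on chromosome 9. CDKN2A, which encodes p16 and ARF, at chr9:21967753-21995301, had 160.0, 157 and 145 CPM in PC3 and no read in HeyA8, at least 5274-fold higher (edgeR adjusted p = 1.2e-35). Its neighbours CDKN2B, encoding the related inhibitor p15, and MTAP, an enzyme of methionine salvage, had 82.2, 78.3 and 81.5 CPM and 90.4, 98 and 96.3 CPM in PC3, again with no read in HeyA8. NF2, which encodes the membrane-linked suppressor merlin, had 25.7, 24.7 and 23.9 CPM in the HeyA8 libraries and 299, 272 and 292 CPM in the PC3 libraries, a log2 fold change of 3.54 ± 0.056 (edgeR adjusted p = 9.6e-34). BRCA1 and ARID1A were tested and not called.

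Neighbouring genes were then examined. Along each chromosome, protein-coding genes with a mean of at least 1 CPM in either line were put in order, and runs of at least 4 of them with no more than 3 reads in every library of 1 line were listed. This rule was chosen after values had been seen and carries no test. It gave 5 runs, 4 silent in HeyA8 and 1 silent in PC3. The run at chr9:21480839-25678440 held 7 genes, IFNE, MTAP, CDKN2A, CDKN2B, DMRTA1, ELAVL2 and TUSC1. None of the 7 had a read in any HeyA8 library, and PC3 means ranged from 4.07 CPM (IFNE) to 154 CPM (CDKN2A). The genes on either side were read in both lines, KLHL9 at 68.1 against 52.5 CPM and CAAP1 at 19.4 against 13.7 CPM.

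The run silent in PC3 lay at chr17:42101404-42423517 and held 8 genes, DHX58, KAT2A, RAB5C, GHDC, STAT5B, STAT5A, STAT3 and CAVIN1. STAT3, the transcription factor downstream of interleukin-6 type cytokines, had 163, 162 and 156 CPM in HeyA8 and 1 read in all of PC3. Across the run PC3 held 0 to 2 reads a gene, and HeyA8 means ranged from 6.28 CPM (DHX58) to 539 CPM (CAVIN1). The next gene, ATP6V0A1, had 54.0 CPM in HeyA8 and 0.369 CPM in PC3, and the one after it, NAGLU, 22.7 and 6.75 CPM. On the other side ZNF385C had 1.41 CPM in HeyA8 and 0.364 CPM in PC3, and C17orf113 0.361 and 1.78 CPM.

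The remaining runs were silent in HeyA8. They held 6 olfactory receptor genes at chr11:124183345-124582942, the trefoil factors TFF1, TFF2 and TFF3 with TMPRSS3 at chr21:42311667-42396846, and MAGEA3, CSAG1, MAGEA12 and MAGEA6 at chrX:152698752-152769747. Around CTNNA1 the pattern was shorter: LRRTM2, which lies inside it, had 487 reads in HeyA8 and none in PC3, while the flanking HSPA9 was at 499.7 against 419 CPM and SIL1 at 22.9 against 6.35 CPM. Farther out, ECSCR had 857 reads in HeyA8 and none in PC3. Of 32 genes tested within 1 Mb, CTNNA1 included, 26 were higher in HeyA8 and 4 in PC3. Over all genes the shares were 36% and 39.3%. Chromosome 5 as a whole was also lower in PC3, with a median log2 fold change of -0.31 over 676 protein-coding genes. The median of the tested genes of the window other than CTNNA1 was -0.69. Gene copy number was not measured.

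**Figure D3:**
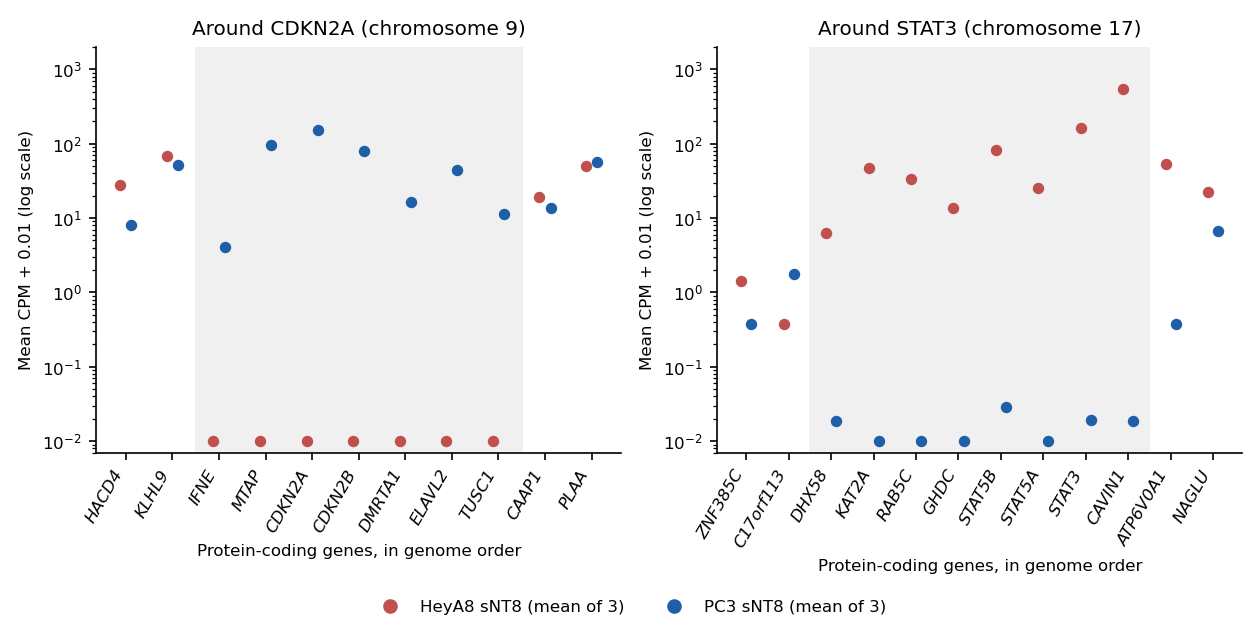
Mean level (CPM plus 0.01, log scale, n = 3 libraries a line) of protein-coding genes in genome order around CDKN2A (left) and STAT3 (right); the shaded genes form the run with no or almost no reads in HeyA8 (left) or PC3 (right). Levels in the silent line drop to the lower edge over the whole shaded run. They are higher outside it, but ATP6V0A1, next to the STAT3 run, had only 0.369 CPM in PC3 against 54.0 CPM in HeyA8. On the other side of that run ZNF385C had only 0.364 CPM in PC3 against 1.41 CPM in HeyA8.

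Whole chromosomes also differed. The median log2 fold change of protein-coding genes on the X chromosome lay 1.10 above that of all protein-coding genes (495 genes), or 0.70 above with limma and a pseudocount of 1 CPM, and that of chromosome 7 lay 0.58 above (674 genes). Chromosome 13 lay at -0.76 (241 genes), chromosome 6 at -0.54 (750 genes) and chromosome 8 at -0.47 (499 genes). Medians for these 5 chromosomes were also taken from log2 CPM with a small offset, for each pair of a HeyA8 and a PC3 library. Their SD over pairs was 0.013 to 0.026. The pairs share libraries, and this SD does not cover the choice of method.

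The lines were next compared for the lineage their labels give. In the ovarian and Mullerian list 13 of 21 genes were tested, 4 were higher in PC3 and 8 in HeyA8, and 2 and 6 of these by at least 4-fold. PAX8, a transcription factor of the Mullerian tract, had 406, 389 and 375 CPM in the HeyA8 libraries and 19.7, 21.2 and 20.1 CPM in the PC3 libraries, a log2 fold change of -4.26 ± 0.056 (edgeR adjusted p = 4.8e-36). MECOM, a zinc-finger factor, had 138, 141 and 128 CPM in the HeyA8 libraries and 28.3, 34.8 and 32.8 CPM in the PC3 libraries, and MSLN, the surface protein mesothelin, 10.9, 10.0 and 9.90 CPM in the HeyA8 libraries and 0.648, 0.497 and 0.445 CPM in the PC3 libraries. All 3 were higher in every HeyA8 library. FOXL2, a factor of ovarian stroma, had 6.91, 6.07 and 7.87 CPM in HeyA8 and 3 reads in all of PC3. Other ovarian markers went against this order or were close to silent. WT1 was higher in PC3 (7.89 against 11.8 CPM), as were CRABP2, a retinoic acid carrier (0.759 against 24.6 CPM), and GATA4 (0.01 against 1.21 CPM). MUC16, which encodes the CA-125 antigen, and WFDC2, which encodes HE4, had no more than 5 reads in either line.

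In the prostate list 13 of 25 genes were tested, 9 were higher in PC3 and 4 in HeyA8, and 4 and 0 of these by at least 4-fold. HOXB13, a factor of the prostate and other caudal tissue, at chr17:48724763-48729178, had 1.21, 1.11 and 1.61 CPM in the HeyA8 libraries and 234, 220.4 and 218 CPM in the PC3 libraries, a log2 fold change of 7.41 ± 0.086 (edgeR adjusted p = 1.3e-37). FOXA1, a pioneer factor of prostate and breast epithelium, had 2.14, 1.98 and 2.58 CPM in the HeyA8 libraries and 213, 204 and 209.8 CPM in the PC3 libraries, a log2 fold change of 6.54 ± 0.077 (edgeR adjusted p = 2.3e-37). SPDEF, an ETS factor of prostate epithelium, had 0.0289, 0.0301 and 0.0861 CPM in the HeyA8 libraries and 34.5, 33.7 and 30.4 CPM in the PC3 libraries. Every PC3 library was far above every HeyA8 library for each of these 3. KLK3, which encodes prostate-specific antigen, KLK2 and FOLH1 had no read in either line. STEAP1 and FKBP5 were higher in HeyA8 (-0.72 and -0.46 on the log2 scale; FKBP5 was 0.25 under sCAG).

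Many basal and neuroendocrine markers had too few reads to be tested. The summed level of the basal list was still 945 to 1007 CPM in HeyA8 and 765 to 787 CPM in PC3. That of the neuroendocrine list was 77.0 to 84.7 CPM in HeyA8 and 81.4 to 85.7 CPM in PC3. Among basal cytokeratin and p63 genes 6 of 14 genes were tested, 3 were higher in PC3 and 3 in HeyA8, and 3 and 0 of these by at least 4-fold, and KRT5, KRT14 and TP63 had 0 to 10 reads in a line and were not tested. KRT6B, a keratin of stressed epithelium, had 9.62, 9.85 and 8.98 CPM in PC3 and no read in HeyA8, at least 325-fold higher. Among neuroendocrine genes 7 of 16 genes were tested, 3 were higher in PC3 and 2 in HeyA8, and 2 and 1 of these by at least 4-fold. POU3F2, a neural POU factor, was higher in PC3 (1.54 against 20.0 CPM), NCAM1, a neural adhesion molecule, was higher in HeyA8 (20.7 against 0.0819 CPM), and INSM1 had no read in either line.

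HOX genes, which encode position along the body axis, split by gene number. In this list 29 of 39 genes were tested, 8 were higher in PC3 and 16 in HeyA8, and 6 and 14 of these by at least 4-fold. HeyA8 held the HOXB genes from HOXB2 to HOXB9. HOXB3 had 117, 109 and 108 CPM in the HeyA8 libraries and 1.58, 1.40 and 1.64 CPM in the PC3 libraries, and HOXB4 had 91.5, 83.4 and 79.7 CPM in the HeyA8 libraries and 0.363, 0.234 and 0.473 CPM in the PC3 libraries. HOXB2 had 48.6, 44.2 and 39.8 CPM in HeyA8 and 5 reads in all of PC3. PC3 held the highest-numbered genes, with HOXA13 at 0.549, 0.601 and 0.603 CPM in the HeyA8 libraries and 103, 102 and 103 CPM in the PC3 libraries and HOXA11 at 18.2, 18.1 and 17.8 CPM against 2 reads in all of HeyA8. HOXC13 had 2.64, 2.22 and 2.61 CPM in PC3 and no read in HeyA8. All 8 genes HOXB2 to HOXB9 were called higher in HeyA8, and HOXA9, HOXA10, HOXA11, HOXA13, HOXB13, HOXC10, HOXC13 and HOXD13 were called higher in PC3. No HOX gene from group 1 to 8 was called higher in PC3. HOXD8 and HOXD9 were higher in HeyA8 (-2.46 and -6.33 on the log2 scale).

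**Figure D4:**
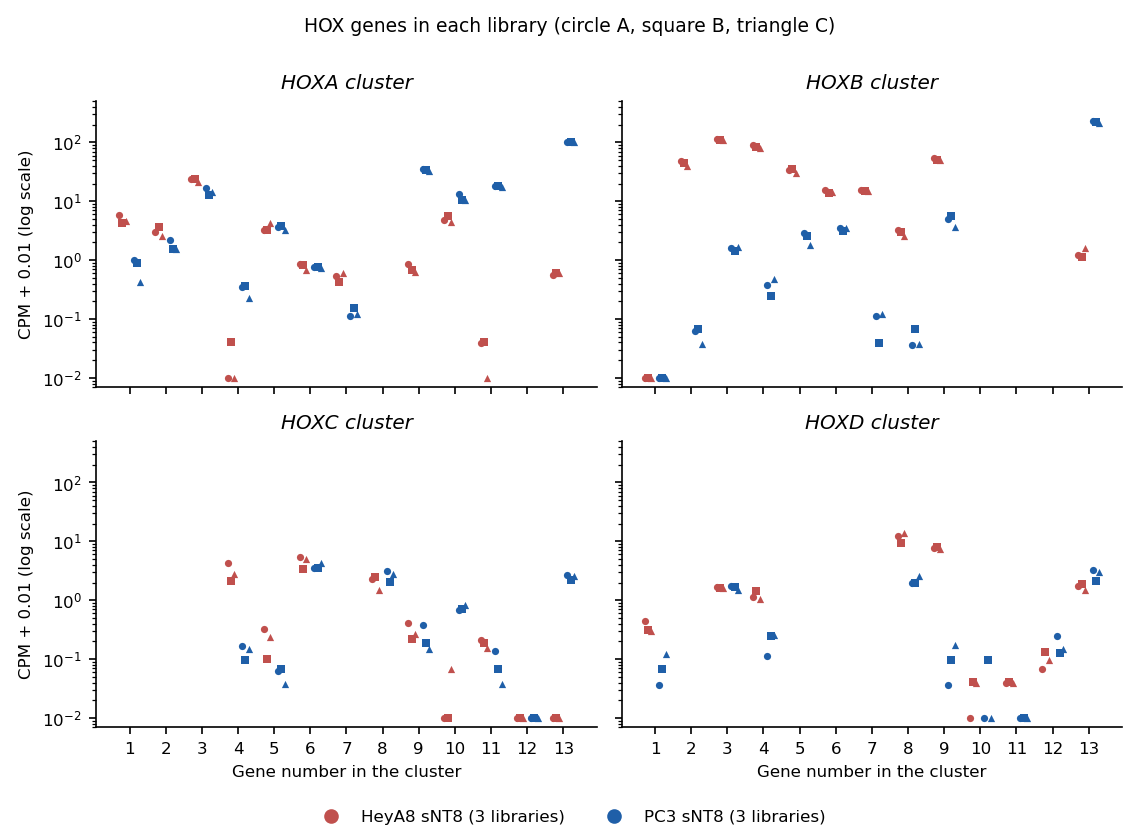
Level of each HOX gene in the 3 HeyA8 and 3 PC3 sNT8 libraries (CPM plus 0.01, log scale) by gene number within the 4 clusters; each symbol is a library. HeyA8 libraries lie above PC3 from HOXB2 to HOXB9, and PC3 libraries lie above HeyA8 at HOXA9 to HOXA13, HOXB13, HOXC10 and HOXC13.

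More epithelial genes were called higher in PC3 and more mesenchymal genes in HeyA8, with exceptions on both sides. Among epithelial genes 31 of 38 genes were tested, 21 were higher in PC3 and 6 in HeyA8, and 19 and 5 of these by at least 4-fold, a median of 2.55. Their summed level went the other way, 2231 to 2431 CPM in HeyA8 and 1710.2 to 1852 CPM in PC3. KRT19, a simple-epithelium keratin, had 0.376, 0.361 and 0.373 CPM in the HeyA8 libraries and 298, 298 and 262 CPM in the PC3 libraries, a log2 fold change of 9.58 ± 0.1 (edgeR adjusted p = 1.5e-38). DSP, the desmosomal protein desmoplakin, had 9.51, 9.29 and 9.50 CPM in the HeyA8 libraries and 146, 156 and 157 CPM in the PC3 libraries, a log2 fold change of 4.02 ± 0.062 (edgeR adjusted p = 4.9e-34). JUP, the junction protein plakoglobin, had 37, 36.6 and 34.7 CPM in PC3 and 1 read in all of HeyA8. CDH1, which encodes E-cadherin, had 2.96, 2.54 and 2.95 CPM in PC3 and no read in HeyA8, at least 96.4-fold higher. EPCAM, an epithelial adhesion molecule, and ESRP1, an epithelial splicing factor, had 0.817 against 13 CPM and 0.458 against 4.71 CPM in HeyA8 against PC3.

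Keratins did not all follow. KRT7 had 184, 181 and 161 CPM in the HeyA8 libraries and 0.752, 0.468 and 0.723 CPM in the PC3 libraries, a log2 fold change of -8.06 ± 0.1 (edgeR adjusted p = 1.1e-35), so the HeyA8 libraries were far above the PC3 libraries. KRT8 (751 against 54.2 CPM) and KRT18 (303 against 133 CPM) were also higher in HeyA8, and both have many near-identical pseudogene copies that could take some reads. LAMB3, a laminin chain of epithelial basement membrane, had 1031 ± 13.9 CPM in HeyA8 and 71.6 ± 5.74 CPM in PC3. AP1M2, an adaptor of polarized traffic, was also higher in HeyA8 (6.16 against 0.2 CPM).

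Among mesenchymal genes 29 of 31 genes were tested, 7 were higher in PC3 and 20 in HeyA8, and 5 and 14 of these by at least 4-fold, with a median of -1.98. The summed level of the list was 19225 to 21278 CPM in HeyA8 and 1807 to 1883 CPM in PC3. VIM, the intermediate filament vimentin, had 4039.8, 3754 and 3776 CPM in the HeyA8 libraries and 344, 350.0 and 340.5 CPM in the PC3 libraries, a log2 fold change of -3.48 ± 0.048 (edgeR adjusted p = 1.6e-35). ZEB1, a repressor of epithelial genes, had 305, 289 and 285 CPM in the HeyA8 libraries and 45.5, 50.9 and 46.4 CPM in the PC3 libraries, a log2 fold change of -2.62 ± 0.053 (edgeR adjusted p = 1.2e-30). CDH2, which encodes N-cadherin, had 185, 174 and 177 CPM in the HeyA8 libraries and 62.2, 66.3 and 65.1 CPM in the PC3 libraries. AXL, a receptor kinase, had means of 1603 ± 35.3 CPM in HeyA8 and 143 ± 9.24 CPM in PC3. TWIST2, a basic helix-loop-helix factor, had 55.6, 51.8 and 55.5 CPM in HeyA8 and no read in PC3, at least 1969-fold lower. The exceptions were CDH11, already given, S100A4, a calcium-binding protein (0.205 against 24.5 CPM), PDGFRA (0.166 against 6.44 CPM), FOXC2 (0.00963 against 3.47 CPM), LUM (0.0579 against 0.417 CPM), SNAI1 (2.51 against 3.85 CPM) and TWIST1 (11.3 against 16.7 CPM), all higher in PC3. SNAI2 was tested and not called (45.7 against 45.2 CPM).

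ZEB1 and the SNAI factors bind the E-box CAGGTG, whose other strand reads CACCTG. In the 250 bases before the start given by RefSeq (GRCh38.p14), 17.5% of 27305 promoters held it on either strand, as did 7 of 19 matched epithelial genes (36.8%) and 3 of 20 matched mesenchymal genes (15%). Of the 7, 3 were higher in PC3, 2 (LAMB3 and AP1M2) were higher in HeyA8 and 2 were not tested. A match is a description of letters and not a binding site. The 30 bases around the match are shown for DSP and for ELF3, an epithelial ETS factor (0.205 against 24.3 CPM in HeyA8 against PC3), since they are the members higher in PC3 with the smallest p that hold a match within 150 bases of the start; capitals mark the E-box.
DSP (chr6:7541574-7541603, plus strand, bases 97 to 68 before the start): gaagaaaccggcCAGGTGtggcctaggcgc
ELF3 (chr1:202010455-202010484, plus strand, bases 132 to 103 before the start): gaatatgcaaatCACCTGgggccaggagcc

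Matrix and adhesion genes differed in both directions, as did all tested genes. Of tested collagens 33.3% were at least 4-fold higher in PC3 and 18.5% in HeyA8, and of integrins and laminins 17.2% and 27.6%. The shares over all genes were 11.9% and 7.66%. Among collagens 27 of 34 genes were tested, 13 were higher in PC3 and 11 in HeyA8, and 9 and 5 of these by at least 4-fold. COL6A1, a chain of the microfibrillar collagen VI, had 139.6, 125 and 129 CPM in the HeyA8 libraries and 893, 838 and 859 CPM in the PC3 libraries, and COL13A1, a transmembrane collagen, 11.2, 11.7 and 13.2 CPM in the HeyA8 libraries and 159, 163 and 164 CPM in the PC3 libraries. COL5A2 was also higher in PC3 (59.3 against 583 CPM). COL4A1, a chain of basement membrane collagen, had 282, 273 and 272 CPM in the HeyA8 libraries and 33, 27.8 and 29.4 CPM in the PC3 libraries, and with COL4A2 (432 against 73.9 CPM) was higher in HeyA8, while COL4A5 (37.8 against 239 CPM) and COL4A6 (0.61 against 44 CPM) were higher in PC3. Among integrins and laminins 29 of 36 genes were tested, 9 were higher in PC3 and 18 in HeyA8, and 5 and 8 of these by at least 4-fold. ITGB8, which activates TGF-beta, had 2.02, 1.92 and 1.55 CPM in the HeyA8 libraries and 88.5, 98.3 and 104 CPM in the PC3 libraries, and LAMA3 was also higher in PC3 (16.3 against 136 CPM). ITGA6 (2199 against 291 CPM) and LAMC1 (829 against 149.6 CPM) were higher in HeyA8. ITGA6 and ITGB4, which pair with each other in hemidesmosomes, thus differed in opposite directions.

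Receptor kinases also differed in both directions, as did all tested genes (39.3% higher in PC3 and 36% in HeyA8). By at least 4-fold, 32.4% of tested receptor kinases were higher in PC3 and 16.2% in HeyA8, against 11.9% and 7.66% of all genes. In this list 37 of 45 genes were tested, 19 were higher in PC3 and 15 in HeyA8, and 12 and 6 of these by at least 4-fold. TIE1, an orphan receptor known from endothelium, had 451, 443 and 441 CPM in the HeyA8 libraries and 0.622, 0.526 and 0.584 CPM in the PC3 libraries, a log2 fold change of -9.58 ± 0.084 (edgeR adjusted p = 1.5e-40). EPHB1, an ephrin receptor, had 87.3, 81.1 and 84.3 CPM in the HeyA8 libraries and 0.804, 0.614 and 0.667 CPM in the PC3 libraries. EGFR was higher in HeyA8 (892 against 218 CPM) and MET in PC3 (460.1 against 680.0 CPM). KDR, a VEGF receptor, had 1.79, 1.41 and 1.49 CPM in the HeyA8 libraries and 64.2, 67.5 and 73.1 CPM in the PC3 libraries, and INSR, the insulin receptor, 13.9, 14.2 and 13.9 CPM in the HeyA8 libraries and 74, 76.3 and 77 CPM in the PC3 libraries. EPHB4 had means of 36.6 ± 1.28 CPM in HeyA8 and 181 ± 12.9 CPM in PC3. The PC3 libraries were above the HeyA8 libraries for these last 3 genes.

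TIE1 and KDR are also endothelial markers, and the rest of that list was read as a check of identity. Among endothelial genes 14 of 15 genes were tested, 5 were higher in PC3 and 9 in HeyA8, and 4 and 8 of these by at least 4-fold, and their summed level was 936 to 1001 CPM in HeyA8 and 129 to 142 CPM in PC3. CDH5, the cadherin of endothelial junctions, had 82.3, 73.4 and 76.2 CPM in HeyA8 and 5 reads in all of PC3, and ENG, a TGF-beta co-receptor, had 335, 307 and 296 CPM in the HeyA8 libraries and 9.20, 7.80 and 9.12 CPM in the PC3 libraries. VWF, a clotting factor carrier, was low in both lines (0.84 against 0.0991 CPM), EMCN had no more than 2 reads in a line, and PECAM1 was higher in PC3 (3.84 against 27.6 CPM). Leukocyte markers summed to 5.20 to 7.52 CPM in HeyA8 and 10.3 to 12.2 CPM in PC3 over 20 genes, with PTPRC, the pan-leukocyte marker CD45, at 0.0193 and 0.0185 CPM. Of the 20, 6 were tested, 4 of them higher in PC3 and 1 in HeyA8. The part that other cells or mixed cultures had in these levels was not tested.

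Interferon-stimulated genes were higher in PC3 almost throughout. All 44 listed genes were tested and called, 38 higher in PC3, 22 of them at least 4-fold, and 6 higher in HeyA8, 2 of them at least 4-fold, and the median was 2.05 against 0.05 for all genes. Their summed level was 994 to 1084 CPM in HeyA8 and 2186 to 2744 CPM in PC3. BST2, the viral restriction factor tetherin, had 0.116, 0.12 and 0.0287 CPM in the HeyA8 libraries and 69.3, 72.8 and 78 CPM in the PC3 libraries, a log2 fold change of 9.65 ± 0.15 (edgeR adjusted p = 5.9e-34). ISG15, a ubiquitin-like modifier, had 3.00, 3.52 and 3.59 CPM in the HeyA8 libraries and 87.7, 96.1 and 101.5 CPM in the PC3 libraries, a log2 fold change of 4.82 ± 0.083 (edgeR adjusted p = 1.0e-32). OAS1, which makes oligoadenylates when it binds double-stranded RNA, had 0.0867, 0.0601 and 0.172 CPM in the HeyA8 libraries and 37.5, 45 and 48.5 CPM in the PC3 libraries. For each of these 3, every PC3 library was above every HeyA8 library, and PC3 library A was the lowest of the PC3 libraries.

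The 6 that were higher in HeyA8 were TRIM22, DHX58, IFITM3, IFITM2, IFI35 and STAT2. TRIM22, a restriction factor that is also on the damage-response list, had 29.9, 28.7 and 30.3 CPM in the HeyA8 libraries and 1.06, 2.22 and 2.08 CPM in the PC3 libraries. IFITM3, a membrane protein that blocks viral entry, had 155, 137 and 127 CPM in the HeyA8 libraries and 37.9, 39.6 and 43.7 CPM in the PC3 libraries. DHX58 belongs to the run of genes near STAT3 that were silent in PC3. IFNE, a type I interferon of the CDKN2A neighbourhood, was read in PC3 only, at 4.07 CPM.

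Many interferon-stimulated promoters hold the interferon-stimulated response element, searched here as TTTC, any 2 bases and TTTC again, or on the other strand GAAA, any 2 bases and GAAA. It occurred in the 250 bases before the start in 3.07% of 27305 RefSeq promoters (GRCh38.p14). Of the 44 listed genes 32 were matched to a promoter, and 19 of them (59.4%) held it; of 37 matched damage-response genes and 22 matched genes of the CCT, coatomer and RNA polymerase II list none did, and 4 of 20 matched mesenchymal genes (20%) and 1 of 19 matched epithelial genes (5.26%) did. Of the 19 with the element 18 were higher in PC3 and 1 in HeyA8, and their median was 2.53 on the log2 scale. Of the 13 without it 11 were higher in PC3 and 2 in HeyA8, with a median of 1.83, so genes without these letters in this window were mostly higher in PC3 too. Shown are the 5 PC3-higher genes with the smallest p and a match within 150 bases of the start; capitals mark the element, and in BST2 and ISG15 a pair of matches overlaps into a longer run.
BST2 (chr19:17405738-17405767, minus strand, bases 137 to 108 before the start): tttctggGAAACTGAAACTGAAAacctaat
ISG15 (chr1:1013377-1013406, plus strand, bases 120 to 91 before the start): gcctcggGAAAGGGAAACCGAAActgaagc
IFI27 (chr14:94110625-94110654, plus strand, bases 111 to 82 before the start): cagTTTCGGTTTCctgGAAAATGAAAccta
IFI6 (chr1:27672288-27672317, minus strand, bases 125 to 96 before the start): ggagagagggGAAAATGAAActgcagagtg
IFIT3 (chr10:89327865-89327894, plus strand, bases 132 to 103 before the start): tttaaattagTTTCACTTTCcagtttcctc
IFI27 and IFI6, interferon-induced membrane proteins, had 0.636, 0.782 and 0.344 CPM in the HeyA8 libraries and 38, 45 and 45 CPM in the PC3 libraries and 2.95, 2.26 and 2.21 CPM in the HeyA8 libraries and 135, 151 and 167 CPM in the PC3 libraries, respectively. IFIT3, an antiviral protein of the IFIT complex, had 7.31, 7.82 and 8.18 CPM in the HeyA8 libraries and 39.8, 47.1 and 47.6 CPM in the PC3 libraries. All 3 were higher in every PC3 library.

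Antigen presentation genes were mixed. Among MHC class I and antigen processing genes 19 of 19 genes were tested, 7 were higher in PC3 and 10 in HeyA8, and 1 and 2 of these by at least 4-fold, with a median of -0.11 that became 0.17 when libraries were scaled by totals alone. HLA-E was higher in HeyA8 (281 against 67.9 CPM), with the opposite direction under sCAG (0.89), but HLA genes are so similar to each other and so variable that reads can be misassigned. TAP1, a peptide transporter, was higher in PC3 (9.19 against 26 CPM), and ERAP2, a peptide-trimming protease, in HeyA8 (115 against 24.7 CPM).

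Cytokine genes leaned towards HeyA8. In this list 28 of 36 genes were tested, 8 were higher in PC3 and 18 in HeyA8, and 6 and 12 of these by at least 4-fold, with a median of -1.51. Beside IL1A, BMP2, a bone morphogenetic protein, had 85.8, 82.8 and 83.3 CPM in the HeyA8 libraries and 1.58, 1.75 and 1.45 CPM in the PC3 libraries, a log2 fold change of -5.72 ± 0.087 (edgeR adjusted p = 3.3e-34). TNF, the inflammatory cytokine, had 9.07, 9.29 and 7.06 CPM in HeyA8 and 6 reads in all of PC3. CSF1 was higher in HeyA8 (68 against 15.5 CPM) and TGFB1 as well (228 against 78 CPM), the latter with the opposite direction under sCAG (1.77). VEGFC, a lymphangiogenic growth factor, had 14.7, 13.9 and 15.1 CPM in the HeyA8 libraries and 83.9, 94.1 and 90.8 CPM in the PC3 libraries, and TGFB3 (1.44 against 18 CPM) and CXCL16 (0.436 against 9.50 CPM) were also higher in PC3.

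Cancer-testis antigens, genes normally limited to the germ line, were read in PC3. Of 40 listed genes only 13 had enough reads to be tested, which the level in PC3 alone decided for most of them, and all 13 were higher in PC3, 11 by at least 4-fold. MAGEA3 had 55, 51 and 52.3 CPM in PC3 and no read in HeyA8, MAGEA6 had 63.3, 66.1 and 63.4 CPM and no read in HeyA8, and PRAME had 8.19, 7.10 and 7.25 CPM and no read in HeyA8. In all, 32 of the 40 had no read in HeyA8 and 12 none in PC3. MAGEA3 and MAGEA6 are near-identical copies, so the split between them is uncertain. The summed level of the list was 1.95 to 2.34 CPM in HeyA8 and 182 to 186 CPM in PC3.

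**Figure D5:**
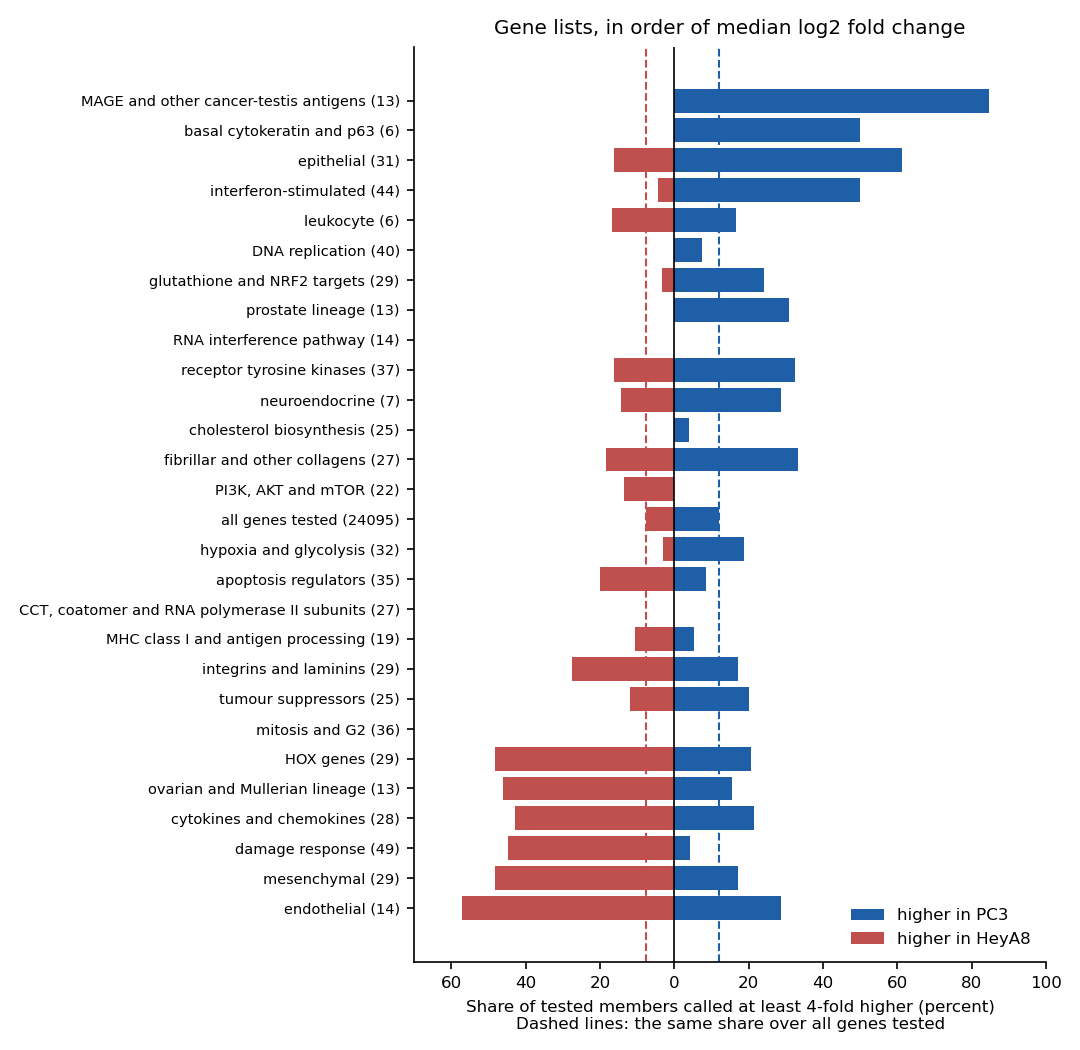
Share of the tested members of each gene list called at least 4-fold higher in PC3 (right, blue) or HeyA8 (left, red), in percent, in order of median log2 fold change; the number tested is in brackets and the dashed lines are the shares over all 24095 genes, 11.9% and 7.66%. Cancer-testis, epithelial and interferon-stimulated genes extend to the right, and endothelial, mesenchymal, HOX and damage-response genes to the left.

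Mitosis and DNA replication genes leaned in opposite directions. Among mitosis and G2 genes all 36 were tested, 32 were higher in HeyA8, 2 in PC3, none by at least 4-fold, with a median of -0.66. With library totals alone 25 were higher in HeyA8 and 5 in PC3. KIF2C, a mitotic kinesin, had 199, 193 and 190.5 CPM in the HeyA8 libraries and 66.4, 67 and 63.4 CPM in the PC3 libraries, and CDC20, an activator of the anaphase-promoting complex, 307, 309 and 288 CPM in the HeyA8 libraries and 114, 115 and 104 CPM in the PC3 libraries. Both were higher in every HeyA8 library, but the direction was opposite under sCAG (2.02 and 3.32 on the log2 scale). The 2 exceptions were BIRC5, which encodes survivin (80.0 against 192 CPM), and CDK1 (165 against 182 CPM, edgeR adjusted p = 0.0071), and the call for CDK1 was lost without HeyA8 library B (adjusted p = 0.0501) or C (adjusted p = 0.0762). Among DNA replication genes all 40 were tested, 30 were higher in PC3 and 7 in HeyA8, 3 and 0 of these by at least 4-fold, with a median of 0.71. ORC6, of the origin recognition complex, had 10.9, 10.5 and 11 CPM in the HeyA8 libraries and 60.7, 57.6 and 64.1 CPM in the PC3 libraries, RPA2, a single-strand binding subunit, 21.6, 21.3 and 19.6 CPM in the HeyA8 libraries and 75.5, 82.9 and 78.9 CPM in the PC3 libraries, and POLA1, the polymerase alpha subunit, 29.3, 29 and 27.2 CPM in the HeyA8 libraries and 91.5, 98.4 and 99.6 CPM in the PC3 libraries.

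Metabolic and stress lists differed in both directions, as did all tested genes (39.3% higher in PC3 and 36% in HeyA8). By at least 4-fold, 11.9% of all genes were higher in PC3 and 7.66% in HeyA8. These shares were 18.8% and 3.13% for hypoxia and glycolysis genes and 24.1% and 3.45% for glutathione and NRF2 targets. They were 4% and 0% for cholesterol synthesis genes, and 0% and 13.6% for PI3K, AKT and mTOR genes. Among hypoxia and glycolysis genes 32 of 32 genes were tested, 14 were higher in PC3 and 8 in HeyA8, and 6 and 1 of these by at least 4-fold, with CA12, a carbonic anhydrase, higher in PC3 (6.01 against 93.1 CPM) and SLC2A3, the glucose transporter GLUT3, higher in HeyA8 (128 against 0.0379 CPM). With library totals alone 26 hypoxia and glycolysis genes were higher in PC3 and 5 in HeyA8. Among cholesterol synthesis genes 25 of 25 genes were tested, 14 were higher in PC3 and 8 in HeyA8, and 1 and 0 of these by at least 4-fold, with EBP, a sterol isomerase, higher in PC3 (21.1 against 127 CPM). Among glutathione and NRF2 target genes 29 of 31 genes were tested, 17 were higher in PC3 and 10 in HeyA8, and 7 and 1 of these by at least 4-fold. GSTM3, a glutathione transferase, had 31.4, 34.5 and 32.3 CPM in PC3 and no read in HeyA8, ABCC3, an organic anion exporter, had 4.62, 3.88 and 4.28 CPM in the HeyA8 libraries and 92.5, 90.8 and 90.5 CPM in the PC3 libraries, and AKR1C3, an aldo-keto reductase, was higher in HeyA8 (29.9 against 3.94 CPM). FTL and FTH1, the ferritin chains, differed in opposite directions (1722 against 539 CPM and 86.2 against 897 CPM), and both have near-identical pseudogenes. Among PI3K, AKT and mTOR genes 22 of 23 genes were tested, 11 were higher in PC3 and 10 in HeyA8, and 0 and 3 of these by at least 4-fold, with PIK3CD, a catalytic subunit, higher in HeyA8 (76.3 against 3.46 CPM).

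The RNA interference and apoptosis machinery was compared next, as the study delivers short RNAs to both lines. Among RNA interference genes all 14 were tested, 9 were higher in PC3 and 2 in HeyA8, none by at least 4-fold. AGO2, the slicing Argonaute, had 335, 316 and 343 CPM in the HeyA8 libraries and 555, 556 and 609 CPM in the PC3 libraries, a log2 fold change of 0.79 ± 0.047 (edgeR adjusted p = 8.3e-17). DICER1, the processing nuclease, had 201, 199 and 186 CPM in the HeyA8 libraries and 247, 231 and 263 CPM in the PC3 libraries, a log2 fold change of 0.34 ± 0.05 (edgeR adjusted p = 2.0e-07), and all 3 PC3 libraries were above all 3 HeyA8 libraries for both genes. The direction was opposite for AGO2 under sG5C (-0.27) and for DICER1 under sG5C (-0.0839) and sCAG (-0.19). These sizes are below the 0.29 by which library totals moved the median under sNT8, so these directions are uncertain. Among apoptosis regulators 35 of 36 genes were tested. Of these, 16 were higher in PC3 and 16 in HeyA8, 3 and 7 of them by at least 4-fold. Their median of 0.03 was close to the 0.05 of all genes. MCL1, a guard against mitochondrial death, had 1514, 1479.6 and 1506 CPM in the HeyA8 libraries and 368, 311 and 319 CPM in the PC3 libraries. CASP2, a caspase, had 27.3, 28.1 and 27.4 CPM in the HeyA8 libraries and 158, 161 and 162 CPM in the PC3 libraries, and BCL2L11, the death protein BIM, 3.58, 4.33 and 4.68 CPM in the HeyA8 libraries and 24.9, 26.9 and 27.2 CPM in the PC3 libraries. MCL1 was thus higher in HeyA8, and CASP2 and BCL2L11 were higher in PC3. The CCT, coatomer and RNA polymerase II list, taken as ordinary housekeeping complexes, had 27 genes tested, 11 higher in PC3 and 14 in HeyA8, none by at least 4-fold, and a median of -0.11 that became 0.18 with library totals alone.

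The same comparison was made in libraries that share none of these samples, those transfected with sG5C and with sCAG. Among sG5C libraries 17613 of 24251 genes were called (72.6%) and 4516 at least 4-fold (18.6%), and among sCAG libraries 18097 of 23225 (77.9%) and 5131 (22.1%). By direction, 38.4% of tested genes were higher in PC3 and 34.2% in HeyA8 under sG5C, 11.9% and 6.74% by at least 4-fold. Under sCAG the shares were 40.3% and 37.6%, and 13% and 9.05% by at least 4-fold. Of the 4720 genes with at least a 4-fold difference under sNT8, 4161 were tested under sG5C, where 4040 (97.1%) were called in the same direction and 15 in the opposite one. Under sCAG 4166 were tested, 4027 (96.7%) were called in the same direction and 23 in the opposite one. Of all 18127 calls, 17301 were tested under sG5C, where 13712 (79.3%) were called in the same direction and 788 in the opposite one. Under sCAG 17172 were tested, 13674 (79.6%) in the same direction and 1129 in the opposite one. CDKN1A had log2 fold changes of -5.66 under sG5C and -5.43 under sCAG, and CTNNA1 of -7.13 and -7.41. HOXB13 had 6.03 and 6.95, PAX8 -3.38 and -3.71, and VIM -2.36 and -3.46. BST2 had 11.26 and 14.04, and TIE1 -7.91 and -9.14. Each of these 7 genes kept the direction it had under sNT8, and values under the 3 short RNAs include whatever each of them did to the cells.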

How the data were processed

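Total RNA libraries (TruSeq) from HeyA8 and PC3 cells were aligned and counted with TopHat, Bowtie2 and HTSeq on hg38 and scaled with DESeq2, per the submitters' processing notes; tool versions and the strand setting: not given in the sources used here. The authors deposited 4 tables of 58395 genes whose values are a signal: gene counts divided by a size factor for each library. The authors' deposited log2 fold changes, p-values and Wald statistic (a score) compare short RNAs within a line, per the file headers, and were not used. Dividing each column by its smallest value above 0 gave whole reads for 100% of values (tolerance 1e-06), and the sNT8 reads were identical for all 58395 genes in the 2 tables that hold each library. Because the lines stand in separately scaled tables, the recovered counts of all libraries were normalized together, as planned.

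The test was edgeR 4.0.16 quasi-likelihood (R 4.3.3; TMM scaling, count minimum 10, robust) with Benjamini-Hochberg adjustment; the standard error is the size of the log2 fold change over the root of F, an approximation. The script was tested on simulated counts. Chi-square per degree of freedom between replicate libraries was 3.35 to 5.15, so none was a duplicate. Named genes were called genes: the 8 protein-coding genes with the largest change in each direction among those with at least 1 CPM in both lines and no overlap, the 8 most abundant with at most 3 reads in every library of a line, the 3 of each list with the smallest p in each direction, and a set of damage-response, lineage, adhesion and RNA interference genes reported whatever their values; other list members named in the text were chosen after their values were seen. The comparison, members and the 28 gene lists were chosen with earlier results of these data known. Alternatives used other scalings and filters, DESeq2 1.42.0, limma 3.58.1, all 18 libraries, the replicate block and each library left out. Replicate letters did not pair libraries across lines: correlations of same-letter deviations were 0.014, -0.001 and 0.013. Some named genes are not reported here. Promoter sequences are RefSeq's (GRCh38.p14).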

Additional observations from a re-analysis of the deposited data

Results flagged for a closer look

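Among the genes chosen by the naming rule, 18 were found for which the HeyA8 and PC3 libraries differed one way under sNT8 and the opposite way under sG5C or sCAG, with no overlap between the lines in either. They are not all such genes: of all calls under sNT8, 788 had the opposite call under sG5C and 1129 under sCAG. The difference between the short RNAs was not tested. Values are log2 fold changes, PC3 minus HeyA8, under the short RNA named. Library totals moved the median under sNT8 by 0.29, so the direction of values smaller than that in size is uncertain. Cell division genes lower in PC3 under sNT8 were higher there under sCAG: KIF2C 2.02, CDC20 3.32 and CCNB1, the mitotic cyclin, 2.46. KRT15, a basal keratin, was 2.88 under sG5C and 2.12 under sCAG. TGFB1 was 1.77, HLA-E 0.89, MCM4, a replicative helicase subunit, 0.48, FKBP5 0.25 and TAPBP, a peptide-loading chaperone, 0.24 under sCAG.

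IRS1, an insulin receptor adaptor, was -0.38 under sG5C and -0.68 under sCAG. CALR, a chaperone of the endoplasmic reticulum, was -0.36 and MVD, of sterol synthesis, -0.40 under sCAG. Under sG5C, COL17A1, a hemidesmosomal collagen, was 0.88, STEAP2 0.38, PRKRA 0.25, PFKP, a glycolytic kinase, 0.0933 and AGO2 -0.27. DICER1 was -0.0839 under sG5C and -0.19 under sCAG.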

How the results depend on the processing

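Line and library naming moved together, and 3 libraries a line limit the precision. Of 136 counts of called genes under the alternatives, 127 stayed within 1.5 times the reported count; 9 moved, all of them at least 4-fold counts. The 4720 genes at least 4-fold different became 7386 with no filter, 3010 with a count minimum of 50 and 1998 with limma and a pseudocount of 1 CPM, which shrinks low genes by construction. Those higher in PC3 became 4649, 1767 and 1100, and those higher in HeyA8 became 898 with that limma setting. With it the at least 4-fold counts were 1898 under sG5C and 2244 under sCAG. Leaving out 1 library gave 17877 to 18185 calls (9364 to 9568 higher in PC3, 8470 to 8617 in HeyA8) and 5071 to 5197 at least 4-fold (3037 to 3274 and 1895 to 2077); under sG5C 17364 to 17684 and 4789 to 5043, under sCAG 17874 to 18176 and 5442 to 5560. DESeq2 called 17216 genes.

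Of 3019 values for single genes under the alternatives, 3001 kept direction and side of the threshold and 17 lost the call (STEAP2, KRT15, ENO2, CDK1 and PRKRA). PRKRA, called as reported (-0.16, edgeR adjusted p = 0.0243), turned to 0.13 with library totals (edgeR adjusted p = 0.0505; 0.0097 to 0.0839 over its alternatives). Of 896 list counts 16 moved by over 1.5 times, 8 of them with library totals alone, which also gave 5 cholesterol genes, 1 RNA interference gene and 7 CCT, coatomer and RNA polymerase II genes higher in HeyA8. A count minimum of 50 left 5 ovarian genes higher in HeyA8. Of 368 chromosome medians 38 moved by more than their SD over library pairs, and that of X ranged from 0.70 (limma, pseudocount of 1 CPM) to 1.12. With the replicate block 17932 genes were called, 9357 higher in PC3 and 8575 in HeyA8, 4741 at least 4-fold.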

Other observations

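The clustered protocadherins, adhesion molecules of chromosome 5, were examined after their values had been seen. Transcripts of the PCDHA genes share 3' sequence with each other, as do those of the PCDHG genes. Reads from the shared sequence cannot be assigned to a member with certainty. All 15 PCDHA genes had a higher mean in PC3, and their summed level was 2.38 to 3.50 CPM in HeyA8 and 71.2 to 73.3 CPM in PC3. Of 22 PCDHG genes 19 had a higher mean in HeyA8, with sums of 116 to 126 CPM in HeyA8 and 11.1 to 12.3 CPM in PC3. Of 16 PCDHB genes 11 had a higher mean in HeyA8 and 5 in PC3. PCDHAC1 had means of 0.0873 CPM in HeyA8 and 18.1 CPM in PC3, and PCDHGC3 39 and 0.277 CPM.

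Some long non-coding RNAs were read almost only in a single line. Those named were picked for this, with no more than 3 reads in any library of the other line. From such RNAs the most abundant were taken, so their difference follows from the choice and says nothing of the class. SSTR5-AS1 had 110.3 ± 1.11 CPM in PC3 and no read in HeyA8, and LINC01468 63.1 CPM and no read. PURPL had 111 CPM in HeyA8 and 0.0184 CPM in PC3, and LINC01322 30.6 and 0.0292 CPM. Whether counting used strand is not stated in the labels, so the level of an antisense RNA is uncertain.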
